A study of Mus musculus with 10 samples.

Results

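Cells that make hemoglobin move large amounts of iron from plasma transferrin through the endosome into mitochondria. Here 10 mouse genes grouped under iron uptake, storage and export were followed in chromatin accessibility data. The genes were Tfrc, Slc11a2 and Steap3 for uptake, Slc25a37 and Slc25a38 for mitochondrial transport, Fth1 and Ftl1 for storage, Ireb2 for regulation, Hmox1 for heme breakdown and Slc40a1 for export. They were chosen by name out of 21911 protein-coding genes of the GENCODE M21 annotation, and every peak summit from 50 kb upstream to 50 kb downstream of a gene was assigned to it. This gave 377 of 146939 summits and 74 of 28981 open regions. An open region is a merged group of 501-bp windows, each centred on a summit, from any of the 10 peak lists.

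The cells were G1E-ER4, a clonal mouse erythroid progenitor line without endogenous GATA1 that carries GATA1 fused to the ligand-binding domain of the estrogen receptor. ATAC-seq, which reads open chromatin through insertions of the transposase Tn5, was performed on about 50000 cells per library. There were 2 libraries without estradiol (0 h) and 2 each after 2, 6, 12 and 24 h in 1e-07 M β-estradiol, which activates the fusion protein. All groups, 0 h included, carried the fusion, lacked endogenous GATA1 and grew in serum with stem cell factor and erythropoietin. The labels do not say that replicates were separate cultures, so the spread between them may be technical. The series followed chromatin accessibility before and during estradiol treatment.

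Iron bound to transferrin enters red cell precursors through the transferrin receptor, is reduced in the endosome and leaves it for the cytosol. It is then imported into mitochondria for heme and iron-sulphur clusters, stored in ferritin, or exported through ferroportin. Iron regulatory proteins act on the transcripts of several of these genes after transcription, a layer that accessibility does not measure.

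The peak lists held 10698 to 19859 summits, with the longest at 6 h (replicate 2) and the shortest at 24 h (replicate 2) and 0 h (replicate 2; 11698 summits). Each summit carried a score, the −log10 of its q-value, which rises with sequencing depth. Scores were therefore read only as a rank within a list, given as a percentile with 100 for the highest score. The lists give no read depth. In bulk cells, a smaller share of cells with an open site and a less open site in each cell cannot be told apart. Among 5 erythroid marker genes the promoter was listed in 9 libraries for Epor, 7 for Nfe2, 4 for Klf1, 2 for Tal1 and 0 for Alas2. The promoter of Kit, a progenitor and mast cell gene, was listed in 9 libraries, and the promoters of the other 3 genes of that list, 2 megakaryocyte genes and 4 genes of other blood lineages in 0.

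Of the 10 iron genes, 4 (40%) had a promoter peak in all 10 libraries, 5 in some and 1 in none, where a promoter peak is a summit within 1 kb of an annotated transcript start. Over all protein-coding genes these shares were 26%, 18% and 56%. The median iron gene had 7.5 open regions within its window, against 3 for all genes. Counting only regions listed in all 10 libraries, the median was 1 for both sets. Among the 74 regions, 9 were promoters of the iron genes, 12 were promoters of neighbouring genes and 53 were distal. In all, 13 regions (17.6%) were listed in all 10 libraries, against 21.5% of all regions, and 20 (27%) in 1 library, against 28.9%. Of the distal regions, 3 (5.66%) were in every library, against 6.69% of all distal regions. Regions of 1 gene share a locus and are not replicates of one another.

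**Figure D1:**
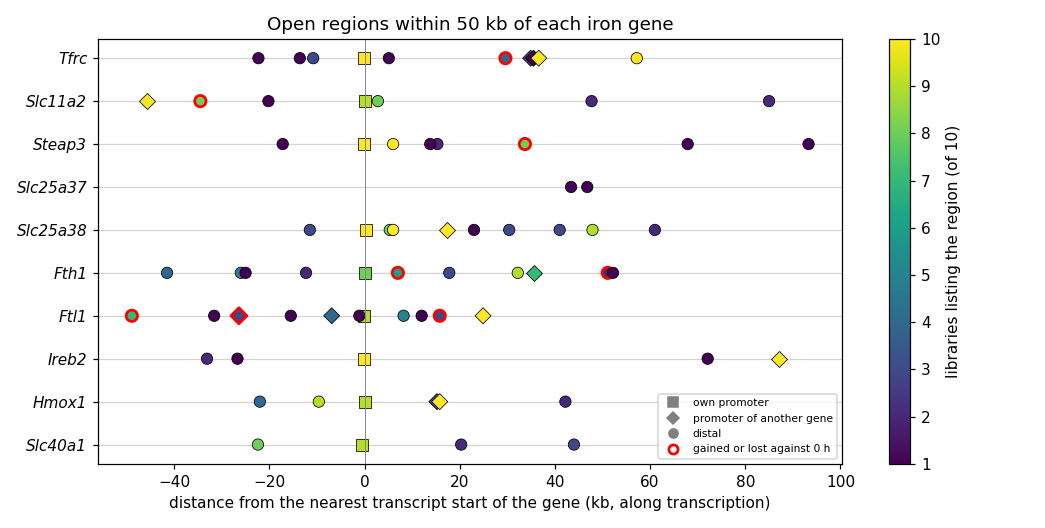
Open regions around each iron gene, by distance in kb from the nearest transcript start of the gene along the direction of transcription, with colour for the number of libraries (1 to 10) and shape for own promoter, promoter of another gene or distal. Red rims mark the 8 regions gained or lost against 0 h at any time, and Slc25a37 shows 2 points, each from 1 library.

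Gained here means listed in both libraries of a time point and absent from both 0 h libraries; lost means the reverse. These calls carry no p-value, since 2 libraries against 2 cannot give an exact permutation p below 0.333. Gained regions among the 74 numbered 1, 5, 4 and 3 at 2, 6, 12 and 24 h. The same rule called 2.67%, 4.08%, 2.47% and 1.71% of all regions, against 1.35%, 6.76%, 5.41% and 4.05% of the iron gene regions. Lost regions numbered 0, 1, 1 and 2 at the same times. Over all regions the lost shares were 1.15%, 0.759%, 1.88% and 3.51%. In total 8 of the 74 regions (10.8%) were called at any time, against 12.1% of all regions. The calls fell on 5 genes, Tfrc, Slc11a2, Steap3, Fth1 and Ftl1, and no promoter of an iron gene was among them. Distal regions were called more often than all regions together, in 14.7% of all distal regions and 13.2% of those near iron genes. Called regions numbered 3499 of all 28981, and 2834 of these were among the 19293 distal regions. The rest of both counts were promoters of any gene, which were thus called less often than distal regions. With so few iron gene promoters, the lack of calls among them is no result about these genes.

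**Figure D2:**
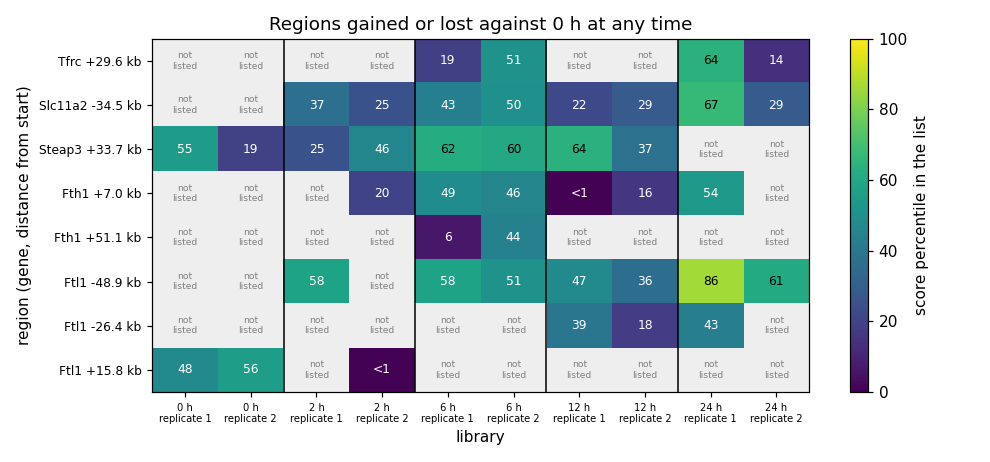
Score percentile of the 8 regions gained or lost against 0 h, in rows named by gene and distance in kb from the transcript start, in each of the 10 libraries; grey cells are libraries that did not list the region. The region 34.5 kb upstream of Slc11a2 is filled in all 8 later libraries, and the region 15.8 kb downstream of the Ftl1 start is filled in both 0 h libraries and 1 at 2 h.

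List length moved with these counts. The 0 h and 24 h replicate 2 lists, the shortest, held 27 iron gene regions each, and the longest, 6 h replicate 2, held 47. The remaining lists held 32 to 42. With every list cut to its 10698 highest scores, gained counts became 2, 2, 2 and 3 and lost counts 1, 1, 1 and 2 at 2, 6, 12 and 24 h.

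**Figure D3:**
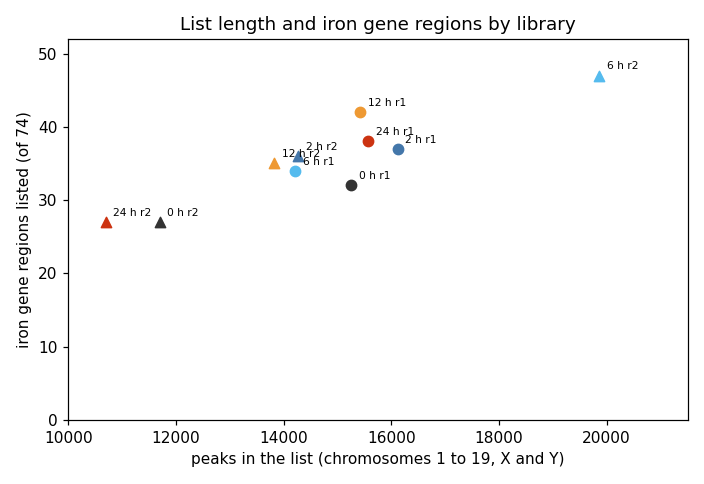
Number of iron gene regions listed (of 74) against the number of peaks in the list, 1 point per library, coloured by time with circles for replicate 1 and triangles for replicate 2. Lists with 10698 and 11698 peaks hold 27 regions each and the list with 19859 peaks holds 47.

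Tfrc (ENSMUSG00000022797.16, chr16:32608920-32632794, plus strand, mm10) encodes the transferrin receptor, the main iron entry route of erythroid cells. Its promoter was open throughout, with percentiles, from here on for replicate 1 and then replicate 2, of 70.4 and 68.9 (0 h), 60.7 and 62.7 (2 h), 56.9 and 89.3 (6 h), 78.4 and 78.5 (12 h), and 82.8 and 71.8 (24 h). The 4 libraries of 12 and 24 h all ranked it above both 0 h libraries, but the 6 h pair spread over more than that gap. Of the 13 regions that entered the rank test described further on, the Tfrc promoter had a difference of 0.33 ± 0.54 (SE) normal score units at 24 h against 0 h, with an adjusted p of 1 in limma.

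The best-ranked distal region at Tfrc lay 57.2 kb from its start, inside an intron of the neighbouring kinase gene Tnk2. It was listed in all 10 libraries, at 85.8 and 59.7 (0 h), 82.8 and 53.7 (2 h), 78.6 and 65.7 (6 h), 81.5 and 56.3 (12 h), and 78.1 and 66.9 (24 h). Replicate 1 ranked it above replicate 2 at each of the 5 time points. The 200 bases around its summit (chr16:32666081-32666280, plus strand) held a composite of CTG and a GATA sequence 8 bases apart, the arrangement at which TAL1 and GATA1 are known to bind together. They are printed because they hold that composite, with it and a further GATA sequence in capitals; this region was picked for display after its matches were seen. In every sequence printed, capitals mark matches to the motifs searched.
Tfrc +57.2 kb: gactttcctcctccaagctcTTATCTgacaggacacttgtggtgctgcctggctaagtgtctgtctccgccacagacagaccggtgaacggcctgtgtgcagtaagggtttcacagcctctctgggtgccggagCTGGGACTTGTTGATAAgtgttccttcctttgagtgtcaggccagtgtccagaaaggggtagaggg

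A second distal region, 29.6 kb from the Tfrc start and between genes, appeared during the time course. It was absent from all 0, 2 and 12 h libraries and listed at 18.8 and 51.3 (6 h) and at 64 and 13.5 (24 h). It was thus called gained at 6 and 24 h but not at 12 h. Its sequence (chr16:32638525-32638724, plus strand) held 2 GATA sequences, TGATAA, within a few bases of each other.
Tfrc +29.6 kb: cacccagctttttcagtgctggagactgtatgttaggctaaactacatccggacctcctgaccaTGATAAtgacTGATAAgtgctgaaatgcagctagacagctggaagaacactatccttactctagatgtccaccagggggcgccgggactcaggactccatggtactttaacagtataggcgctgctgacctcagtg
With lists of equal length this region was gained at 24 h and no longer at 6 h. The 3 regions at the Tnk2 promoter, 34.9 to 36.6 kb from the Tfrc start, were in 3, 1 and 10 libraries.

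Slc11a2 (ENSMUSG00000023030.16, chr15:100387898-100425072, minus strand) encodes DMT1, the transporter that moves reduced iron out of the endosome. Its promoter, which also lies within 1 kb of a start of the predicted gene Gm5475, was listed in 9 libraries and missing in 6 h replicate 1. Percentiles were 88.8 and 69.5 (0 h), 44.9 and 82.6 (2 h), 83.9 in the single 6 h library, 13.9 and 79.7 (12 h), and 51.9 and 78.3 (24 h). The replicates went in opposite directions: each later replicate 1 value lay below that of 0 h, and each later replicate 2 value above it.

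The region 34.5 kb upstream of Slc11a2 (chr15:100457180-100458441, between genes) was the only one of the 74 gained at all 4 later time points. Over all regions, 50 (0.173%) met that rule. Neither 0 h library listed it. It stood at 36.6 and 25.2 (2 h), 43 and 50.2 (6 h), 22.2 and 28.9 (12 h), and 67 and 29 (24 h). All 8 later libraries listed it, 6 of them below the middle of the list. The region spans 1262 bp, against a median of 627 bp over all regions, so these libraries need not share the same summit. With summits extended by 100 bp it split into separate gained regions at 6 h. The 200 bases around its median summit (chr15:100457496-100457695, plus strand) are shown because no other region near an iron gene was gained as often. They held none of the 4 motifs searched, so no letter is in capitals.
Slc11a2 -34.5 kb: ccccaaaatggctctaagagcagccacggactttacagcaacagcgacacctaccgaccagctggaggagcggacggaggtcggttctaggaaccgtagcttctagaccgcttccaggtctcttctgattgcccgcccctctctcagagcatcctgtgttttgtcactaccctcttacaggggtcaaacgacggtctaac
With lists of equal length the call stood at 2, 6 and 24 h and was lost at 12 h.

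An intronic region 2.8 kb into Slc11a2, with 3 GATA sequences in its central 200 bases, was listed in 8 libraries but close to the bottom at 0 h. Its percentiles were 1.67 and 0.62 (0 h), 57.8 and 39.7 (2 h), 47.4 in 1 library at 6 h, 36.7 and 34.5 (12 h), and 23 in 1 library at 24 h. Every later library that listed it ranked it above both 0 h libraries, and 2 later libraries, 6 h replicate 1 and 24 h replicate 1, did not list it. It was no gain by the rule, because the 0 h lists held it, but became one at 2 and 12 h when lists were cut to equal length. This region lies outside the rule for named regions and was chosen after its values were seen. Of all 19293 distal regions, 438 (2.27%) held 3 or more GATA sequences, against 1 (1.89%) of the 53 near iron genes.

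Steap3 (ENSMUSG00000026389.16, chr1:120190757-120272705, minus strand) encodes the endosomal ferrireductase that prepares iron for DMT1. Its promoter peak, at one of 4 annotated starts, was in all 10 libraries, at 80 and 41.5 (0 h), 76.7 and 83.3 (2 h), 83.6 and 91.1 (6 h), 79.1 and 54.5 (12 h), and 67 and 53.3 (24 h). The 0 h pair alone spread over 41.5 to 80, which covers 12 and 24 h, while 2 h replicate 2 and both 6 h libraries lay above it. The difference at 6 h against 0 h was 0.85 ± 0.57 (SE) normal score units with an adjusted p of 1 in limma. Within an intron, 6.0 kb from the start, lay the distal region with the highest mean percentile of the 53, 74.0 over 10 libraries, when an unlisted peak counts as 0. It ran from 51.6 (6 h replicate 1) to 91.2 (2 h replicate 1). It is shown as the highest-ranked distal region, with its only GATA sequence at the right edge.
Steap3 +6.0 kb: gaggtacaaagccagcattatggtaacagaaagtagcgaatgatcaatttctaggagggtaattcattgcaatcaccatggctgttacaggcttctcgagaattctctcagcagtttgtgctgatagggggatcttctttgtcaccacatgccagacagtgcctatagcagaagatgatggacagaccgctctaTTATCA
These bases lie at chr1:120259199-120259398 on the plus strand.

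A further intronic region of Steap3, 33.7 kb from the start, was lost at 24 h. It was listed at 55 and 19.3 (0 h), 25 and 45.8 (2 h), 62.1 and 60.2 (6 h), and 63.8 and 37.2 (12 h), and neither 24 h library held it. It was therefore present in all 8 earlier libraries and missing in the last 2. The call stood with lists of equal length. Its central 200 bases (chr1:120231494-120231693, plus strand) held 1 GATA sequence.
Steap3 +33.7 kb: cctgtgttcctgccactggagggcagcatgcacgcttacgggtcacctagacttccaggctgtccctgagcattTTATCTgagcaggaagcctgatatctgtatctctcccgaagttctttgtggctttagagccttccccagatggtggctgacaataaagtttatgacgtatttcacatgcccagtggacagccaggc
The Steap3 window as a whole held 3.5 ± 0.707 summits at 0 h, and 4 ± 1.41, 3.5 ± 0.707, 5 ± 1.41 and 2 ± 0 at the later times in order (mean ± SD, n = 2 libraries each).

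Slc25a37 (ENSMUSG00000034248.7, chr14:69241848-69285112, minus strand) encodes mitoferrin 1, which carries iron into erythroid mitochondria. It was the only iron gene with no promoter peak in any library. Its window held 2 summits in all, 1 in each 2 h library and in different regions, 43.4 and 46.8 kb from its start, against 28 to 59 summits at the other 9 genes. The submitters kept reads that aligned to exactly 1 place in the genome, so the mm10 sequence was searched for copies. Within 1 kb of the Slc25a37 start, 100% of 75-base stretches were found more than once, all of them with a copy on the same chromosome and with a median of 2 copies in the genome. With 36-base stretches the share was also 100%. At the other 9 genes the share of 75-base stretches around the starts was 0 to 10.6%. Over the whole window it was 57.2% at Slc25a37, against 0.863 to 8.28% elsewhere.

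Upstream of the gene 100% of 75-base stretches were repeated, in the gene 71.3%, and in the downstream flank 2.35%. Both listed summits lay in that downstream flank. An absent peak at Slc25a37 is therefore no measurement of closed chromatin over the promoter and upstream flank, where an error-free 75-base read has more than 1 position. The match was exact and used single stretches, and the effect of mismatches or of paired reads was not tested.

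**Figure D4:**
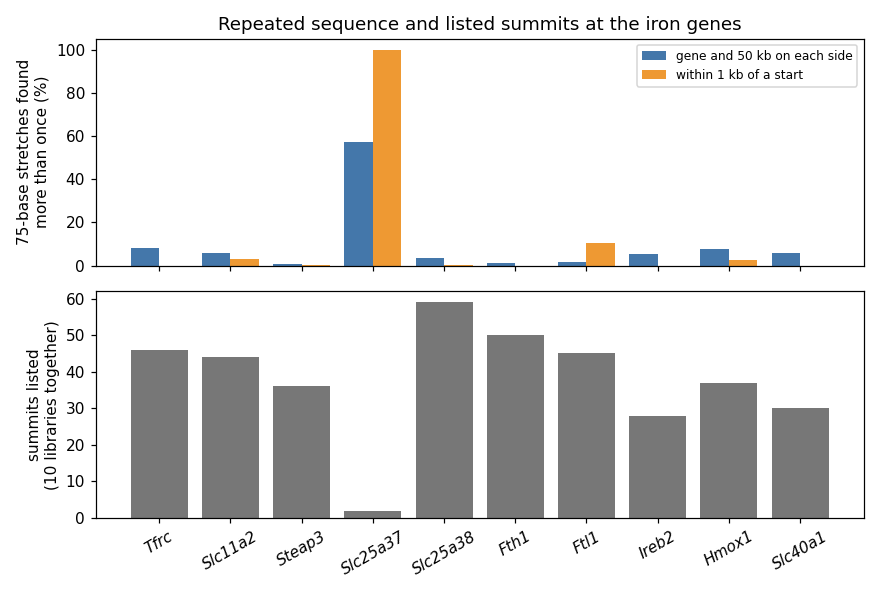
Upper bars give the percent of 75-base stretches found more than once in the genome, over the gene with 50 kb on each side (blue) and within 1 kb of its starts (orange), for each iron gene; lower bars give the summits listed in the 10 libraries together. Slc25a37 stands at 57.2% and 100% with 2 summits, and the other genes at 10.6% or less with 28 to 59 summits.

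Slc25a38 (ENSMUSG00000032519.11, chr9:120110374-120124504, plus strand) encodes the mitochondrial glycine carrier needed for the first step of heme synthesis. Its promoter was in all 10 libraries and had the highest mean percentile of the iron gene promoters, 73.1. Values were 82.1 and 39.5 (0 h), 82.5 and 67.9 (2 h), 80.3 and 86.8 (6 h), 55.7 and 72.9 (12 h), and 79.8 and 84 (24 h). The lowest library was 0 h replicate 2 and the other 0 h library was among the 4 highest, so no time point stood apart. Its leading distal region, in an intron 6.0 kb from the start, was also in all 10 libraries, at 18.5 to 84.3, and ranked higher in replicate 1 than in replicate 2 at all 5 time points. At the promoter of the ribosomal protein gene Rpsa, 17.3 kb away, replicate 2 was the higher at all 5. No region at Slc25a38 was gained or lost.

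Fth1 (ENSMUSG00000024661.7, chr19:9980598-9985098, plus strand) encodes the ferritin heavy chain, the subunit that oxidises iron for storage. The promoter was in 8 libraries and missing in 6 h replicate 1 and 12 h replicate 1. It stood at 54 and 41.3 (0 h), 48.5 and 51.7 (2 h), 75.2 in 1 library at 6 h, 59.6 in 1 library at 12 h, and 62.4 and 65 (24 h). Both 24 h libraries ranked it above both 0 h and both 2 h libraries, with a gap from 54 to 62.4. The Fth1 window held 7 and 1 summits in the 0 h libraries, the widest split of any time point at this gene.

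Downstream of Fth1, a region 7.0 kb from the start, in an intron of the chloride channel gene Best1, was gained at 6 and 12 h. No 0 h library listed it. It was listed in 2 h replicate 2 at 20.3, at 48.7 and 45.7 (6 h), at 0.587 and 15.8 (12 h), and in 24 h replicate 1 at 53.9. The 12 h call rested on a peak near the foot of the replicate 1 list, and it was lost when a score of at least 2 was asked for. A region 51.1 kb from the start, in a coding exon of Rab3il1, was gained at 6 h only, at 6.37 and 43.9, and was in no other library. Neither Fth1 region was called with lists of equal length. Both sequences are printed as regions that appeared during the course, at chr19:9989645-9989844 and chr19:10033687-10033886 on the plus strand, and neither held any of the motifs searched.
Fth1 +7.0 kb: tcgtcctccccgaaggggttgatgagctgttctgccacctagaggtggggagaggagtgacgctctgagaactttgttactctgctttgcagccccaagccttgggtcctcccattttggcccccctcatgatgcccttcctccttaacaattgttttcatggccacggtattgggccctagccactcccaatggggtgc
Fth1 +51.1 kb: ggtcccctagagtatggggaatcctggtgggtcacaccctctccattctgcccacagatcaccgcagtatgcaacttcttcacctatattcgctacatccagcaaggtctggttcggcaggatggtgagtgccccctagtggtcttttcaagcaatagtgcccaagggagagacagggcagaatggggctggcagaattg
The best-ranked distal region at Fth1, 32.2 kb from the start within Rab3il1, was in 9 libraries and missing in 0 h replicate 2, at 36.1 at 0 h and 27.9 to 72.1 later.

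Ftl1 (ENSMUSG00000050708.16, chr7:45457944-45459884, minus strand) encodes the ferritin light chain, which supports the iron core. Its promoter was in 9 libraries and missing in 24 h replicate 1. Percentiles were 54 and 41.4 (0 h), 61.1 and 78 (2 h), 22.5 and 77.5 (6 h), 60.1 and 76.2 (12 h), and 87.5 in the single 24 h library. Around its starts 10.6% of 75-base stretches had copies elsewhere, the highest share after Slc25a37, and 20.1% within the gene. Both 2 h and both 12 h libraries ranked it above both 0 h libraries, and replicate 2 was above them at all 4 later times. Replicate 1 lay below both 0 h libraries at 6 h and did not list the peak at 24 h.

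Of the 8 regions gained or lost near the iron genes, 3 lay at Ftl1. A region 48.9 kb upstream, over a noncoding exon of Nucb1, was gained at 6, 12 and 24 h. It was in neither 0 h library and in 2 h replicate 1 at 57.9, then at 58.1 and 51.3 (6 h), 47.4 and 36.1 (12 h), and 86.1 and 61.1 (24 h). It was the highest-ranked of the gained regions and kept its 3 calls with lists of equal length, with a score of at least 2 and with narrower windows. Its sequence (chr7:45508656-45508855, plus strand) held an AGATAA and, on the opposite strand, the CCACACCC bound by KLF factors, both in capitals.
Ftl1 -48.9 kb: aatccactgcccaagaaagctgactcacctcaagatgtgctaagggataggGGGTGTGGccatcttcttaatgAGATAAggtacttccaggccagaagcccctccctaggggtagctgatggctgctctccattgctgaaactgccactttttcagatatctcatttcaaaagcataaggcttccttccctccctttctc

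In the opposite direction, a region 15.8 kb downstream of the Ftl1 start, in an intron of the glycogen synthase gene Gys1, was lost at 6, 12 and 24 h. It stood at 47.8 and 56.1 (0 h), was at 0.725 in 2 h replicate 2 and unlisted in 2 h replicate 1, and was in none of the 6 libraries from 6 h on. With lists of equal length it was also lost at 2 h. Its sequence (chr7:45443733-45443932, plus strand) held 1 GATA sequence on the opposite strand.
Ftl1 +15.8 kb: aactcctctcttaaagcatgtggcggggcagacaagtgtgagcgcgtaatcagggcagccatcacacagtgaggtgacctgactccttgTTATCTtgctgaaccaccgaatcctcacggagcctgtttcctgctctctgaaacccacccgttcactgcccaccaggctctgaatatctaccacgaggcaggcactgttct
The third, 26.4 kb upstream at the start of Tulp2 and Gm45808, was gained at 12 h only, at 39.2 and 18.3, and was also in 24 h replicate 1 at 42.9. The 12 h call was lost with lists of equal length. The promoter shared by Gys1 and Ruvbl2, 24.9 kb from Ftl1, was in all 10 libraries at 81.1 to 96.4.

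Ireb2 (ENSMUSG00000032293.8, chr9:54863789-54912530, plus strand) encodes iron regulatory protein 2, which binds iron-responsive elements in ferritin and transferrin receptor transcripts. Its promoter was in all 10 libraries, at 82.8 and 58.7 (0 h), 48.9 and 72.4 (2 h), 49 and 67.1 (6 h), 55.2 and 47.7 (12 h), and 46.9 and 83.2 (24 h). Both 12 h libraries lay below both 0 h libraries, and the 24 h pair spanned the whole range. The difference at 12 h was -0.90 ± 0.62 (SE) normal score units, with an adjusted p of 0.999 in limma. No distal region at Ireb2 was in more than 2 libraries; the best of the 3, 33.1 kb upstream, was in 2. The promoter of Psma4 and AY074887, 87.0 kb from the Ireb2 start, was in all 10 libraries at 30.3 to 85.8.

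Hmox1 (ENSMUSG00000005413.8, chr8:75093621-75100589, plus strand) encodes heme oxygenase 1, which opens the heme ring and frees its iron. Its promoter was in 9 libraries and missing in 24 h replicate 2, the shortest list. It stood at 64.8 and 67.2 (0 h), 79.6 and 35.1 (2 h), 90.7 and 60.8 (6 h), 52 and 68.4 (12 h), and 86.4 in 1 library at 24 h. The later libraries lay on both sides of the 0 h pair.

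The main distal region at Hmox1, 9.6 kb upstream, was in 9 libraries and missing in 0 h replicate 1. It stood at 35.8 in the single 0 h library, 44.6 and 61.3 (2 h), 73.9 and 71.6 (6 h), 21 and 72.8 (12 h), and 54.7 and 27 (24 h). Both 6 h libraries ranked it above the 0 h library, and 12 h replicate 1 and 24 h replicate 2 below it. Its central 200 bases (chr8:75083887-75084086, plus strand) held 3 matches to TGACNNNGC, the core of the antioxidant response and MAF recognition elements through which NRF2 and BACH1 are known to act on Hmox1. Of all 19293 distal regions, 16 (0.0829%) held 3 or more such matches. The sequence is printed for these repeats, which read GCTGAGTCA in capitals, and was picked for display after the matches were seen.
Hmox1 -9.6 kb: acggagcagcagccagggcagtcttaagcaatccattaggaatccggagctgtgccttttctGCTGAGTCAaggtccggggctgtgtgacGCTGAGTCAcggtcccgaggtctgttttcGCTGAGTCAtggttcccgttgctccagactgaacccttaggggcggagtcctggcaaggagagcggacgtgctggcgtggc
No region at Hmox1 was gained or lost, and the promoter of the replication gene Mcm5, 15.8 kb from its start, was in all 10 libraries at 44.0 to 87.7.

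Slc40a1 (ENSMUSG00000025993.10, chr1:45908068-45926523, minus strand) encodes ferroportin, the iron exporter. Its promoter was in 9 libraries and missing in 2 h replicate 1. Percentiles were 41.5 and 70.8 (0 h), 17.4 in 1 library at 2 h, 84.2 and 65 (6 h), 63.2 and 65.1 (12 h), and 28.1 and 53.5 (24 h). The region spanned 1793 bp and the best summit of each library was used, so libraries may be ranked at different summits. The 2 h value and 24 h replicate 1 lay below both 0 h libraries, and 6 h replicate 1 above them. A distal region 22.4 kb upstream was in 8 libraries, at 38.2 in 1 library at 0 h and 3.53 to 50.4 later. The window held few summits, 2 ± 1.41 at 0 h and 3 ± 2.83 at 2 h (mean ± SD, n = 2 each), where the 2 h libraries held 1 and 5. No region at Slc40a1 was gained or lost.

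**Figure D5:**
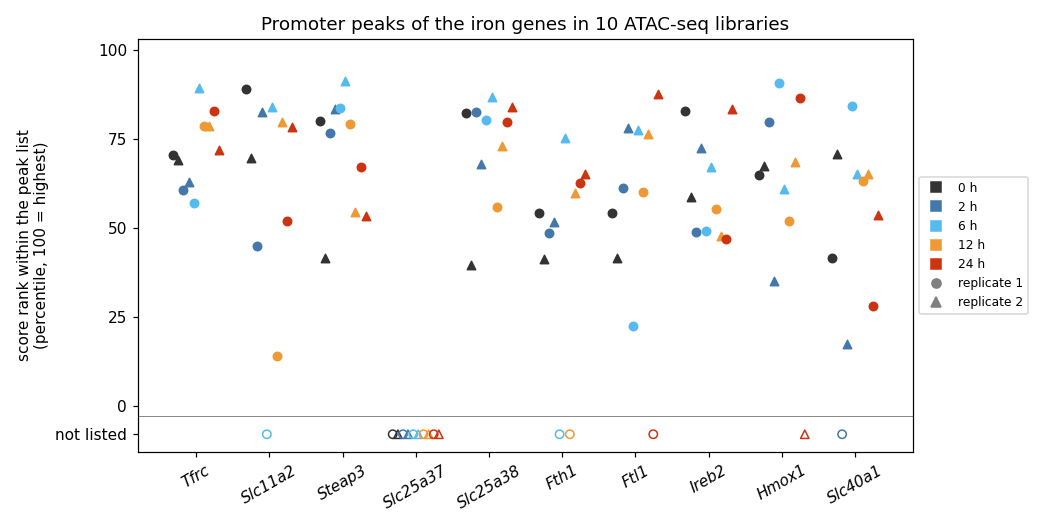
Score percentile of the promoter peak of each iron gene in the 10 libraries, coloured by time, with circles for replicate 1 and triangles for replicate 2; open symbols below the line are libraries that did not list the peak. Tfrc, Steap3, Slc25a38 and Ireb2 are listed in all 10 and Slc25a37 in none, and at most genes the 2 replicates of a time point lie as far apart as the time points do.

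Ordered by mean percentile over the libraries that listed them, the promoters ran from Slc25a38 (73.1), Tfrc (72.0), Steap3 (71.0), Hmox1 (67.2), Slc11a2 (66.0), Ftl1 (62.0), Ireb2 (61.2) and Fth1 (57.2) to Slc40a1 (54.3). The narrowest range over libraries at any of the 9 was 56.9 to 89.3 at Tfrc, wider than the whole span of the means, so neighbours in this order did not differ beyond their spread. The 9 promoters were unlisted in 6 cases among their libraries, 5 of them in replicate 1.

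The rank of a peak was tested over time for the 6234 regions listed in all 10 libraries, of which 13 lay near an iron gene. Scores were ranked anew among these 6234 regions within each library, so the ranks differ from the percentiles of the full lists. They were turned into normal scores, and limma compared the time points in 1 fit and the trend in a separate fit. At an adjusted p of 0.05, 0 regions (0%) passed at 2, 6, 12 or 24 h against 0 h or for a trend over the order of time points, and 0 of the 13 did. At an unadjusted p under 0.05 the counts over all regions were 198, 173, 193, 260 and 317, and 0 of the 13 in each. Counts of about this size or larger arise among 6234 tests in which nothing changes. The median size of the difference, in normal score units, was 0.31, 0.50, 0.31 and 0.24 for the 13 at 2, 6, 12 and 24 h and 0.37, 0.37, 0.37 and 0.39 for all regions, so the 13 lay above all regions at 6 h and below them at the other times. These 13 regions were the promoters of Tfrc, Slc25a38, Steap3 and Ireb2, 6 promoters of neighbours and 3 distal regions. Adjusted p-values ran from 0.997 to 1. In a limma fit that also paired libraries of the same replicate number, the lowest was 0.763, at the Psma4 and AY074887 promoter near Ireb2 at 24 h. The test covers only regions that every library listed, so none of the 8 gained or lost regions entered it.

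GATA sequences (AGATAA or TGATAA on either strand, in the 200 bases around the summit) were found in 19 of the 53 distal regions near iron genes (35.8%), against 38.2% of all distal regions. The composite of CTG and a GATA sequence 7 or 8 bases on, which overlaps the GATA sequence, was in 2 (3.77%), against 7.27%. The core TGACNNNGC was in 6 (11.3%), against 10.7%, and CCACACCC was in 4 (7.55%), against 3.73%. Of the 7 distal regions gained or lost, 4 held a GATA sequence. These are matches of letters, with no test.

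A further 33 genes of iron handling, none of them among the 10, were listed for uptake, storage and chaperones, regulation, mitochondrial iron, and export or heme handling. Their promoters were in all 10 libraries for 13 genes, in some for 7 and in none for 13. The mitochondrial group, with 6 genes, was open at every promoter in at least 1 library, among them the iron-sulphur scaffold Iscu and the glutaredoxin Glrx5, both in 10 libraries. In the uptake group 5 of 8 promoters were in no library, including the ferrireductases Steap1, Steap2 and Steap4, whereas the second transferrin receptor Tfr2 was in 10. Of the 8 regulators, 5 were in none, including the hepcidin gene Hamp, and Aco1, which encodes iron regulatory protein 1, and the erythroid hormone gene Erfe were in 10. The ferritin receptor Ncoa4, which carries ferritin to lysosomes, was in 10.

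Around these 33 genes lay 161 regions. Gained regions numbered 3 (1.86%), 9 (5.59%), 4 (2.48%) and 6 (3.73%) at 2, 6, 12 and 24 h, and lost regions 2 (1.24%), 0, 4 (2.48%) and 5 (3.11%), to be read against the shares of all regions given above. A promoter region was called at 3 of the genes, chosen here after the calls were seen. One at Ncoa4 was gained at 6 and 12 h, 1 at the lysosomal heme transporter gene Slc48a1 was gained at 6 h, and that of Fbxl5, which encodes the iron sensor that degrades iron regulatory protein 2, was lost at 24 h. By the counts given above, promoters of any gene were called less often at any time than all regions together (12.1%) or distal regions alone (14.7%). Neither of these shares is a like background for the 3 promoters. All comparisons with 0 h share the same 2 control libraries.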

How the data were processed

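ATAC-seq peaks of 10 G1E-ER4 libraries were analysed, 2 at each of 5 time points, grouped by the labels. The authors aligned reads to mm10, kept those at a single position, and called peaks per library with MACS2 and --nomodel; methods name Bowtie2, while the submitters' processing notes name Bowtie 1.0.0, Picard and MACS2. The deposited score of each 1-bp summit is a −log10 q-value, with a lowest score of 1.3 to 1.35, and is not scaled between libraries. Read depth is unknown. The 4 or 5 peaks per list outside chromosomes 1 to 19, X and Y were left out.

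Summits were extended by 250 bp on each side and merged into regions (median 627 bp). Where a list had several summits in a region, the highest percentile was used. Promoters were within 1 kb of the 41520 starts of protein-coding genes in the basic GENCODE M21 set. Sequence and repeats came from GRCm38, the mm10 assembly; no summit lay beyond a chromosome end. Hjv was matched by its older symbol Hfe2. One further marker gene is not reported here. Ranks were tested in limma 3.58.1 (R 4.3.3) with Benjamini-Hochberg adjustment over 6234 regions, after a test on simulated data in which 85 of 200 changed regions were recovered. The simulated shifts, at 24 h only, were several times the residual SD, with independent noise of the same SD in every region. Most of these large shifts were missed, so a lack of calls does not show unchanged ranks. Python 3.11.15 and pandas 2.3.3 did the rest.

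All members are named, with their promoters, every gained or lost region and the best-ranked distal region of each. Exceptions are stated. The members and lists were chosen with earlier results of these data known. Same-numbered replicates deviated together: over 10 pairs of time points the correlation of their deviations was 0.177 to 0.359 (median 0.272), so the numbers pair the libraries. Alternatives were equal list length, a score of at least 2, 100-bp extension, 500-bp promoters, each library left out, and a replicate block, percentiles, a looser filter and hours for the rank test.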

Additional observations from a re-analysis of the deposited data

How the results depend on the processing

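Cutting every list to the length of the shortest changed the gained counts at 2, 6 and 12 h from 1, 5 and 4 to 2, 2 and 2, and the lost count at 2 h from 0 to 1; the 24 h counts stood. Of the calls, 2 of 5 gains at 6 h, 1 of 4 at 12 h and all 3 at 24 h were kept. A score of at least 2 or 100-bp extension kept every count within 1.5 times. Leaving out a library asks for agreement of fewer lists, so counts can only grow. Gained counts then ranged from 1 to 8 at 2 h, 5 to 16 at 6 h, 4 to 16 at 12 h and 3 to 14 at 24 h, and lost counts from 0 to 2, 1 to 5, 1 to 4 and 2 to 7. At 2 h, gains were 4 and 3 without 0 h replicate 1 and 2, and 8 and 7 without 2 h replicate 1 and 2; losses were 1, 2, 1 and 2. At 6 h, gains were 9 without 0 h replicate 1 and 16 and 9 without 6 h replicate 1 and 2; losses were 2 without either 0 h library and 5 without 6 h replicate 2. At 12 h, gains were 7 and 16 without 12 h replicate 1 and 2; losses were 3 and 4 without 0 h replicate 1 and 2, and 2 without 12 h replicate 2. At 24 h, gains were 6 without 0 h replicate 1 and 14 without 24 h replicate 2; losses were 4 and 7 without 0 h replicate 1 and 2, and 4 without either 24 h library. Promoters in every library numbered 4 to 5 and distal regions 3 to 4 when a library was left out, and 4 promoters remained within 500 bp. The rank test called 0 of the iron gene regions under each alternative run; with the replicate block, which pairs libraries of the same number, it also called 0, so the block changed no call. With regions in at least 8 libraries, 26 iron gene regions were tested and 1 region of all 9327 passed, for the trend. List length and unknown read depth limit what an unlisted peak means.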
